A study of Rattus norvegicus with 18 samples.

Results

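Cartilage and osteoblast genes were followed in RNA from CD11b/c bead-sorted cells of the rat knee synovium. The group was chosen by name and holds 10 of the 30643 genes in each deposited table. Its members are the cartilage matrix genes Acan, Comp and Cilp, the cartilage transcription factor gene Sox9, the osteoblast transcription factor genes Runx2 and Sp7, the bone matrix and mineral genes Ibsp, Bglap and Alpl, and Ptprv, a gene of a receptor-type protein tyrosine phosphatase. Each member matched 1 gene identifier. Ptprv is in the group because the study named it for its difference at 12-weeks, so its OA and sham values at 12-weeks are given as a description with no test.

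All rats were male, wild type Sprague Dawley animals operated on at 12 weeks of age. OA was induced by cutting the anterior cruciate ligament and the medial meniscotibial ligament after opening the joint, and sham rats had the joint opened without a transection. Synovium was digested 4 or 12 weeks later, and cells carrying CD11b/c, an integrin of myeloid cells, were bound to magnetic beads. Each library is a pool of 4 rats at 4-weeks or of 3 rats at 12-weeks, which gave 5 libraries for each surgery at 4-weeks and 4 for each at 12-weeks. The methods of the study state 5 replicates per condition at both times, and the labels were followed here.

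Cartilage is built by chondrocytes, which need Sox9 and secrete aggrecan and collagens. Bone is built by osteoblasts, whose formation needs Runx2 and then Sp7 (osterix), and which make alkaline phosphatase, bone sialoprotein and osteocalcin. These genes do not define macrophages, and the synovium lies close to both tissues. In a bulk library of sorted cells, fewer cells of a type and less RNA per cell cannot be told apart.

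Total recovered reads were 4662344 to 17235069 per library at 4-weeks, lowest in sham replicate 3, and 10976114 to 18080503 at 12-weeks. The limit that a count of 0 allows, 3 reads, was worth 2.06 to 6.96 normalized reads at 4-weeks and 2.27 to 3.82 at 12-weeks, counting error only. The labelled cell type was checked against 12 macrophage markers, all of which were in the tables. Csf1r, the receptor for macrophage colony-stimulating factor, had 20785 to 28192 normalized reads at 4-weeks and 25265 to 36139 at 12-weeks. The libraries also held RNA of other cell types. Col2a1, the type II collagen gene of cartilage, had 208 to 1456 normalized reads at 4-weeks and 305 to 1277 at 12-weeks, and Lum, the lumican gene of fibroblasts, had 702 to 2714 and 578 to 2486. The fibroblast gene Col3a1 had 33811 to 77964 and 36073 to 70359, and the endothelial gene Vwf 9320 to 15186 and 10626 to 19437. The macrophage markers summed to 133491 to 159241 and 147486 to 211770, and the fibroblast markers to 76233 to 160425 and 84349 to 158939.7. Macrophage markers were thus present in every library, but the libraries were not of macrophage RNA alone. None of the marker genes found in the tables was at 0 in every library, though the osteocyte gene Sost had 0 to 4.64 normalized reads at 4-weeks and 0 to 2.62 at 12-weeks. Fold changes below are limma differences of log2(normalized reads + 1), on which changes of low genes come out too small, and a call needed a log2 fold change of at least 0.5 and a Benjamini-Hochberg adjusted p under 0.05.

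The sequences just before the transcription start are shown for 5 members, because the group holds Runx2, a factor that binds DNA at the letters TGTGGT. Ptprv and Ibsp are among the 5 because several paragraphs below describe their levels. Of the 10 members, 8 had a promoter window in RefSeq, with 9 windows since Runx2 has 2. Sox9 and Sp7 had none. Each line gives the 250 bases before the start, 5′ to 3′ on the strand of the gene, in the GRCr8 build, which is not the build of the deposited counts. Capitals mark TGTGGT or its reverse complement ACCACA.
Ptprv (chr13:49120122-49120371, minus strand): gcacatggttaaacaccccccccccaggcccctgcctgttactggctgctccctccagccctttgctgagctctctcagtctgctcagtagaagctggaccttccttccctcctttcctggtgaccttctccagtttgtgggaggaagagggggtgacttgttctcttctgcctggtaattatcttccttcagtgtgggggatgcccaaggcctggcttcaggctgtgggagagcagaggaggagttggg
Ibsp (chr14:5757243-5757492, minus strand): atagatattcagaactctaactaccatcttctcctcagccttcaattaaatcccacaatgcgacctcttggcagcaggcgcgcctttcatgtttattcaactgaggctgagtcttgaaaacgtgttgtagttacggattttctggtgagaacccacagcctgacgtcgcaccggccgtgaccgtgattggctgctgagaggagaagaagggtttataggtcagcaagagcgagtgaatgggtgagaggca
Cilp (chr8:74672198-74672447, plus strand): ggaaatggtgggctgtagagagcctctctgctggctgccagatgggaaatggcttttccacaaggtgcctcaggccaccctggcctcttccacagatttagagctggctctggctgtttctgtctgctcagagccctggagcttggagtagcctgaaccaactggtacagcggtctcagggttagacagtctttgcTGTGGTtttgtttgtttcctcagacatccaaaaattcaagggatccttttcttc
Runx2 (chr9:23664808-23665057, plus strand): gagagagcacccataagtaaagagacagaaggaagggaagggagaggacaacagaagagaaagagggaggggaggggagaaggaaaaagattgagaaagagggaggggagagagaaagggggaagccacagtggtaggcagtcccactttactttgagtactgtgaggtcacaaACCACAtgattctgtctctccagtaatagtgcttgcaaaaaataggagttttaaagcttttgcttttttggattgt
Bglap (chr2:176137319-176137568, minus strand): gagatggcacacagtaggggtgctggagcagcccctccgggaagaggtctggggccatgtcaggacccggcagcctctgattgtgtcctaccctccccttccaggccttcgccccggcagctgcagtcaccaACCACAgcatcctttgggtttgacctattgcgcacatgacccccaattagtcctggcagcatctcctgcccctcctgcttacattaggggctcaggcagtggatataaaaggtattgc

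The RUNX letters occurred once each in the windows of Cilp (54 to 49 bases before the start), Runx2 (76 to 71 bases) and Bglap (118 to 113 bases), that is in 3 of the 8 members with a window. They occurred on either strand in 14.5% of the 33469 rat windows of this length. The windows of Ptprv, Ibsp, Acan, Comp and Alpl did not hold them, which says only that these letters are absent from the windows. The SOX letters AACAAT, or ATTGTT on the other strand, were in 0 of the 8 members and in 10.3% of all windows. A match describes the sequence and is not evidence of binding.

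Levels differed widely between libraries of the same group, and no member separated OA from sham at 4-weeks. At 12-weeks Ptprv, which was chosen on that contrast, and Sp7 were higher in every OA library than in every sham library. Across all genes tested the groups did not overlap for 1.87% at 4-weeks and for 6.29% at 12-weeks, in 2.85% with OA higher. Sp7 and Bglap had means under 10 normalized reads, so 8 of the 10 members were tested at each time. The shares above therefore do not include genes as low as Sp7.

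**Figure D1:**
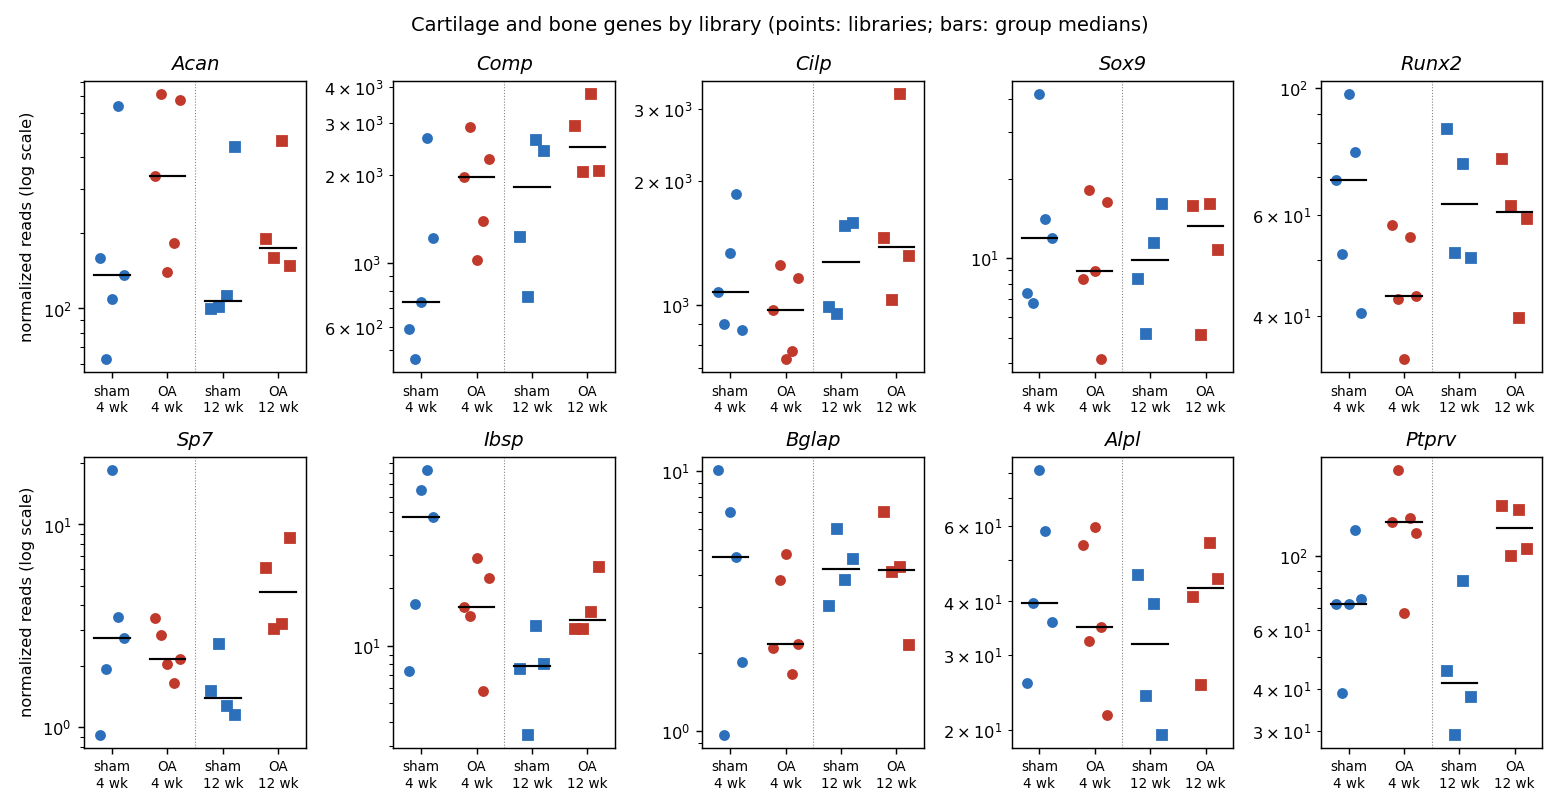
Normalized reads (log axis) of the 10 genes in each library, with sham in blue and OA in red, circles for 4-weeks and squares for 12-weeks, and bars at the group medians. The weeks were normalized separately. Ptprv and Sp7 at 12-weeks are the panels in which OA and sham do not overlap, and single libraries stand high in others, as for Acan in sham replicate 4 at 12-weeks (441 normalized reads).

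Cartilage matrix genes were examined first. Acan (ENSRNOG00000028992) encodes aggrecan, the large proteoglycan that holds water in cartilage. At 4-weeks OA replicates 1 to 5 had 336, 714, 140.1, 183 and 675 normalized reads of Acan, and sham replicates 1 to 5 had 159, 63.0, 109, 642 and 136. OA replicates 2 and 5 were above every sham library, 3 sham libraries were below every OA library, and sham replicate 4 lay among the highest. Acan had a log2 fold change of 1.08 (SE 0.59, n = 5 and 5), with an adjusted p of 0.658 in limma and an exact two-sided permutation p of 0.159. Without sham replicate 4 it was 1.59 (adjusted p = 0.494), and without sham replicate 2 it was 0.75.

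At 12-weeks Acan had 189, 158, 465 and 148 normalized reads in OA and 99.7, 101, 112 and 441 in sham. All but 1 sham library lay below every OA library, and the exception was again the library labelled sham replicate 4, which is a different pool from the one at 4-weeks. The log2 fold change was 0.51 (SE 0.50, n = 4 and 4, adjusted p = 0.685 in limma, exact permutation p = 0.457). Without sham replicate 4 it was 1.03, with an unadjusted p of 0.0166 and an adjusted p of 0.311, and without OA replicate 3 it was 0.13, so the size of the Acan difference depended on single libraries.

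Comp (ENSRNOG00000048472) encodes cartilage oligomeric matrix protein, which is also made in tendon and synovium and helps to assemble collagen fibrils. OA libraries at 4-weeks had 1962, 2922, 1017, 1387 and 2264 normalized reads of Comp and sham libraries had 591, 468, 731, 2671 and 1212. Of the sham libraries, 3 were below every OA library, and sham replicate 4 was the second highest of the 10. Comp had a log2 fold change of 0.96 (SE 0.42), with an unadjusted p of 0.0423, an adjusted p of 0.616 in limma and an exact permutation p of 0.111. At 12-weeks Comp had 2944, 2038, 3772 and 2052 normalized reads in OA and 1220.4, 762, 2628 and 2405 in sham. The groups overlapped, with sham replicates 3 and 4 inside the range of OA. The log2 fold change was 0.74 (SE 0.37, adjusted p = 0.430 in limma, exact permutation p = 0.229), and it was 1.00 without sham replicate 3 and 0.40 without sham replicate 2.

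Cilp (ENSRNOG00000029911) encodes cartilage intermediate layer protein, a matrix protein that binds transforming growth factor beta. At 4-weeks its levels were 739 to 1247 normalized reads in OA (mean 978 ± 228, SD, n = 5) and 869 to 1860.0 in sham (mean 1208 ± 409, n = 5). At 12-weeks they were 1027 to 3257 in OA (mean 1763 ± 1011, n = 4) and 952 to 1582 in sham (mean 1268 ± 346, n = 4). The order of the means differed between the weeks, and in both the groups overlapped. The log2 fold changes of Cilp were -0.28 (SE 0.21, adjusted p = 0.737) at 4-weeks and 0.37 (SE 0.32, adjusted p = 0.642) at 12-weeks in limma. The 12-week value rested in large part on OA replicate 3, without which it was 0.02.

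Sox9 (ENSRNOG00000002607), the gene of the transcription factor that chondrocytes need, was near the lower limit of the test. It had 4.15 to 18.1 normalized reads in OA and 6.79 to 41.8 in sham at 4-weeks, and 5.11 to 16.1 and 5.16 to 16.1 at 12-weeks. The highest value, 41.8, came from sham replicate 3, the library with the fewest reads. The log2 fold change was -0.36 (SE 0.51, adjusted p = 0.853 in limma) at 4-weeks and 0.04 without that library. At 12-weeks it was 0.19 (SE 0.42, adjusted p = 0.867).

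Among the osteoblast genes, Runx2 (ENSRNOG00000020193) is the earliest factor of the lineage. On GRCr8 its gene overlaps 2 other annotated genes, Supt3h and a long non-coding RNA gene, and the strand setting of the counting was not stated, so its reads cannot be assigned to Runx2 with certainty. At 4-weeks the OA libraries had 57.5, 42.9, 33.7, 54.8 and 43.4 normalized reads of Runx2 and the sham libraries 69.1, 51.4, 97.5, 77.4 and 40.5. Sham replicates 1, 3 and 4 were above every OA library, while sham replicate 5 was below all OA libraries but 1. Runx2 had a log2 fold change of -0.48 (SE 0.23, unadjusted p = 0.0591, adjusted p = 0.639 in limma, exact permutation p = 0.111). At 12-weeks the OA libraries had 39.7 to 75.0 and the sham libraries 50.6 to 84.6 normalized reads, with a log2 fold change of -0.14 (SE 0.23, adjusted p = 0.817).

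Sp7 (ENSRNOG00000014082), the osterix gene that acts after Runx2, rested on 1 to 8 reads per library and was not tested in limma. At 12-weeks 7, 3, 3 and 8 reads of Sp7 were recovered in OA and 2, 3, 1 and 1 in sham, or 6.11, 3.06, 3.22 and 8.58 against 1.51, 2.58, 1.27 and 1.15 normalized reads. OA and sham did not overlap, although all 4 sham libraries and 2 of the OA libraries held 3 reads or fewer. OA replicates 2 and 3 and sham replicate 2 held 3 reads each and were set apart only by scaling. The exact two-sided permutation p was 0.0286, the smallest that 4 libraries against 4 allow. With every gene with a read in the limma fit, Sp7 had an adjusted p of 0.418, and no fold is given at these counts. At 4-weeks Sp7 had 1.66 to 3.47 normalized reads in OA and 0.921 to 18.6 in sham, where sham replicate 3 alone exceeded 3.52.

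Ibsp (ENSRNOG00000002158) encodes bone sialoprotein, which binds hydroxyapatite and is made where mineral first forms. At 4-weeks Ibsp had 15.9, 14.3, 28.8, 5.82 and 22.8 normalized reads in OA and 7.37, 16.5, 65.0, 83.2 and 47.0 in sham. The 3 highest libraries were sham replicates 3, 4 and 5, and the other 2 sham libraries lay among the OA libraries. Ibsp had a log2 fold change of -0.99 (SE 0.61, adjusted p = 0.687 in limma, exact permutation p = 0.206), between -1.49 without sham replicate 1 and -0.65 without sham replicate 4. At 12-weeks Ibsp had 12.2, 12.3, 15.0 and 25.7 normalized reads in OA and 7.56, 3.44, 12.7 and 8.04 in sham. Sham replicate 3 was inside the OA range and the other sham libraries were below it. The log2 fold change was 1.00 (SE 0.38), with an unadjusted p of 0.0250, an adjusted p of 0.358 in limma and an exact permutation p of 0.0857. No alternative brought the adjusted p at 12-weeks under 0.235. At 12-weeks Ibsp had a mean of 16.3 normalized reads in OA and 7.94 in sham, with 4 recovered reads in sham replicate 2. Ibsp thus reached the mean needed for the limma test only through the OA libraries. Its limma p at 12-weeks is therefore a description, and its fold change rests on low sham counts.

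Bglap (ENSRNOG00000019607) encodes osteocalcin, the vitamin K-dependent protein of mature osteoblasts. It had 1 to 11 recovered reads per library, 0.969 to 10.1 normalized reads at 4-weeks and 2.14 to 6.98 at 12-weeks, with overlapping groups at both times. The exact permutation p was 0.444 at 4-weeks and 0.886 at 12-weeks, and a difference was not detectable at this depth. Alpl (ENSRNOG00000013954) encodes the tissue-nonspecific alkaline phosphatase that frees phosphate for mineral. Its level was 21.7 to 59.7 normalized reads in OA and 25.8 to 81.2 in sham at 4-weeks, and 25.5 to 54.7 and 19.5 to 46.1 at 12-weeks. The groups overlapped, and the log2 fold changes of Alpl were -0.22 (SE 0.33, adjusted p = 0.860) and 0.39 (SE 0.31, adjusted p = 0.613) in limma. Leaving out 1 library moved them between -0.42 (sham replicate 1) and -0.011 (sham replicate 3) at 4-weeks and between 0.18 (sham replicate 4) and 0.60 (OA replicate 2) at 12-weeks.

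Ptprv (ENSRNOG00000005277) encodes a phosphatase known from osteoblasts and the testis. At 4-weeks, the time that did not name it, Ptprv had 126, 181, 67.3, 129.6 and 117 normalized reads in OA and 71.8, 38.8, 72.0, 119.5 and 74.6 in sham. OA replicates 1, 2 and 4 were above every sham library, OA replicate 3 was below 4 of the 5 sham libraries, and sham replicate 2 was the lowest of the 10. The log2 fold change was 0.73 (SE 0.29), with an unadjusted p of 0.0254, an adjusted p of 0.595 in limma and an exact permutation p of 0.103. Leaving out 1 library at a time gave 0.52 to 0.93. DESeq2 on the recovered reads gave 0.72 (SE 0.30) with an adjusted p of 0.311.

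At 12-weeks Ptprv had 141, 100.1, 137 and 105 normalized reads in OA (mean 121 ± 21.4, SD, n = 4) and 45.3, 29.2, 83.9 and 37.9 in sham (mean 49.1 ± 24.1, n = 4). The lowest OA library was above the highest sham library, sham replicate 3. The ratio of the means was 2.46 and the log2 fold change 1.38 (SE 0.28), or 1.67 without sham replicate 3. These values chose the gene and are not tested.

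**Figure D2:**
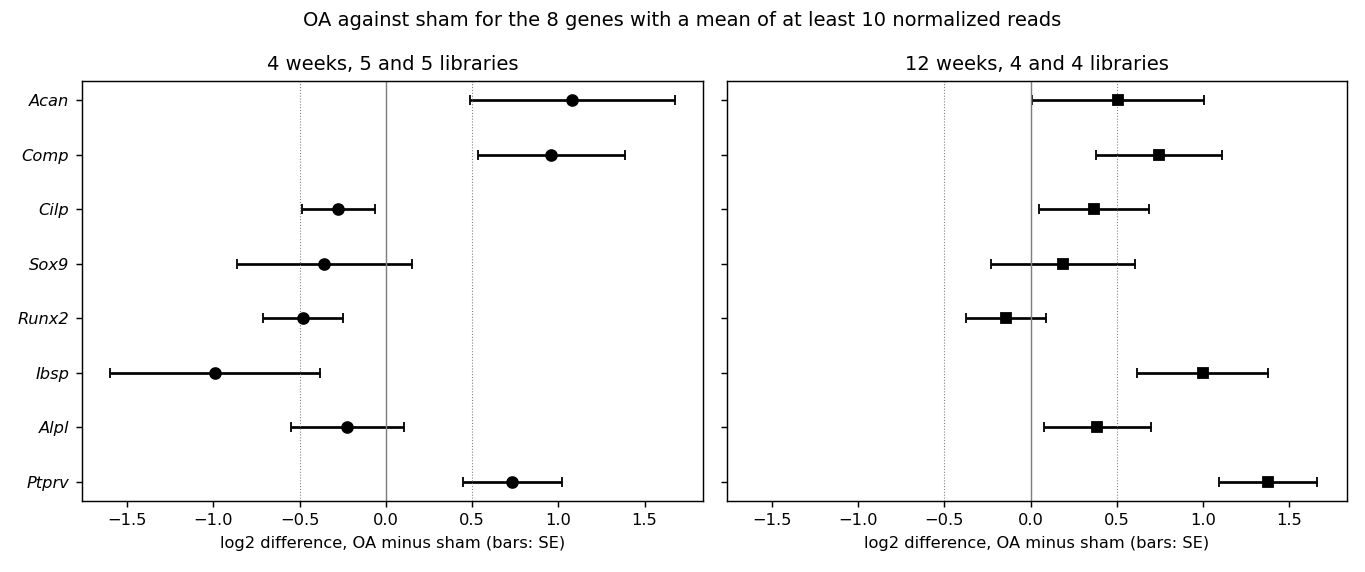
Log2 difference of OA from sham at 4-weeks (5 and 5 libraries) and 12-weeks (4 and 4) for the 8 genes whose mean reached 10 normalized reads, with bars of 1 SE and dotted lines at 0.5 in either direction. At 4-weeks 3 genes lie above 0 and 5 below, and at 12-weeks Runx2 alone lies below 0.

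In limma 0 of the 8 tested members were called at 4-weeks, where 0% of all 14861 genes were called, and 0 were called by edgeR or DESeq2. DESeq2 called 0.182% of all genes. At an unadjusted p under 0.05 there were 2 members, Comp and Ptprv, both higher in OA, against 7.92% of all genes tested, or 4.1% with OA higher. Of the 8 members 3 were higher and 5 lower, with a median log2 fold change of -0.25 beside 0.03 over all genes, of which 57.1% were higher.

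At 12-weeks 0 of 14666 genes (0%) were called in limma or edgeR, and DESeq2 called 0.648% of all genes. Apart from Ptprv, 0 of 7 tested members were called by any of the 3. Of them 1, Ibsp, had an unadjusted p under 0.05, where 12.4% of all genes passed and 5.75% did so with OA higher. Ibsp reached the mean needed for testing only through its OA libraries, so this count of 1 is a description. With Ptprv included, 7 of 8 members were higher in OA and 1, Runx2, lower. The median was 0.45 beside -0.01 over all genes, of which 47.5% were higher. Ptprv was chosen on this contrast, so its place among the 7 and its part in the median were fixed in advance. The members' libraries are shared, so these counts are not independent of each other.

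Other genes of both tissues were taken from lists of 30 genes each. Of the cartilage list, 24 genes were tested at each time and 0 were called in limma. OA exceeded sham for 10 of them at 4-weeks and fell short of it for 14, with a median log2 fold change of -0.14. At an unadjusted p under 0.05 Col11a1, a fibrillar collagen gene (0.64), and Trps1, a transcription factor gene (0.43), were higher, and Chad, the chondroadherin gene (-0.60), was lower, where 4.1% of all genes were higher and 3.82% lower at this p. The counts turned on single sham libraries, with 6 higher and 0 lower without sham replicate 4 and 0 higher and 4 lower without sham replicate 2.

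At 12-weeks 19 cartilage genes were higher and 5 lower, with a median of 0.30, and 7 were higher at an unadjusted p under 0.05 while 0 were lower, beside 5.75% of all genes higher and 6.62% lower. Without OA replicate 3 the count was 4 higher. The 7 were the matrilin gene Matn4 (1.44), the collagen genes Col9a1 (1.23), Col2a1 (0.95) and Col11a1 (0.86), the lubricin gene Prg4 (0.65), the chondrocyte factor gene Sox5 (0.63) and Trps1 (0.45). Matn4 had a mean of 16.5 normalized reads in OA and 6.05 in sham, and Col9a1 21.1 and 7.94. Both reached the mean of 10 only through the OA libraries, so their place among the 7 is a description and their fold changes rest on low sham counts. Col2a1 had 776 ± 474 normalized reads in OA and 346 ± 55.8 in sham (SD, n = 4). DESeq2 called 1 cartilage gene, Col11a1 (log2 fold change 0.84, adjusted p = 0.0372), where it called 0.648% of all genes.

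Of the bone list, 27 genes were in the tables and 24 were tested at each time, with 0 called in limma. At 4-weeks 13 were higher and 11 lower, with a median of 0.03. Postn, the periostin gene of fibroblasts and periosteum (0.72), was higher, and Spp1, the osteopontin gene that macrophages also use (-1.22), was lower at an unadjusted p under 0.05, beside 4.1% of all genes higher and 3.82% lower. Sham replicate 1 had 24589.5 normalized reads of Spp1 and the other sham libraries 3409.5 to 6324. At 12-weeks 14 were higher and 10 lower, with a median of 0.06, and 6 were higher and 0 lower at that p, beside 5.75% and 6.62% of all genes. They were Dlx3 (1.03), Dmp1 (0.89), Postn (0.84), Tnfrsf11b (0.59), Col1a1 (0.57) and Ankh (0.25). Without sham replicate 3, limma called Postn, Tnfrsf11b, the gene of the osteoclast inhibitor osteoprotegerin, and Col1a1. In that refit it called these 3 of the 24 bone genes tested and 81 of all 14663 genes tested, 77 of them higher. Whether the bone list held more calls than other genes was not tested.

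Markers of some other cells were also higher in OA at 12-weeks. The summed level of the fibroblast markers (13 of 14 in the tables) was 136199 to 158939.7 normalized reads in OA and 84349 to 134478 in sham, with no overlap. Of all single genes tested, 6.29% did not overlap at 12-weeks, 2.85% with OA higher. At an unadjusted p under 0.05, 10 of the 13 were higher and 1 lower, beside 5.75% of all genes higher and 6.62% lower. The osteoclast markers (9 of 10) summed to 2120.2 to 3112 in OA and 1299 to 1824 in sham, and the skeletal muscle markers (7 of 10) to 996 to 1911 and 726 to 899.8, both with no overlap. Of the 8 osteoclast markers tested, 6 were higher and 2 lower, with 2 higher at an unadjusted p under 0.05. Those 2, Acp5 (mean 1114 in OA and 601 in sham) and Ctsk (857 and 575), made up most of the sum. All 7 muscle markers tested were higher, 5 of them at that p. The chondrocyte markers (12 of 12) summed to 880.3 to 2152 in OA and 701 to 1079 in sham and overlapped. The sums of the macrophage, osteocyte, endothelial, adipocyte, mural, neutrophil, T cell, B cell, tendon and Schwann markers overlapped too. Of the tested markers, 11 of macrophages were higher in OA and 1 lower, and 3 of tendon were higher and 0 lower. More were lower than higher for endothelial (4 and 1), mural (3 and 1), neutrophil (3 and 1) and adipocyte (2 and 0) markers. The part of these markers in the differences of the members was not tested. Prg4 is in both the cartilage and the fibroblast list, Postn and Col1a1 are in both the bone and the fibroblast list, and all 12 chondrocyte markers are in the cartilage list.

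At 4-weeks the sums of the fibroblast, osteoclast, skeletal muscle and chondrocyte markers overlapped between OA and sham. Of the 13 fibroblast markers 11 were higher in OA. At an unadjusted p under 0.05, 4 were higher and 1 lower, beside 4.1% of all genes higher and 3.82% lower. The fibroblast markers summed to 98835 to 155142 in OA and 76233 to 160425 in sham. The highest was sham replicate 4, the library that was also the highest sham library for Acan, Comp, Cilp, Ibsp and Ptprv. The osteoclast markers summed to 2207 to 3633 in OA and 2671 to 5892 in sham. All 8 tested were lower in OA, 4 of them at an unadjusted p under 0.05, beside 3.82% of all genes lower.

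The libraries were then used to ask which genes varied most like each member, by the smaller of the Pearson correlations over the 10 libraries of 4-weeks and the 8 of 12-weeks. These values describe shared variation between libraries, to which group differences, cell composition and depth all contribute. Each gene named was picked as the highest among all genes that reached a mean of 10 at both times, which by itself gives high r. For Ptprv the closest genes were Lum (r = 0.93 and 0.98), the metalloproteinase gene Mmp16 (0.92 and 0.97) and Igsf10 (0.92 and 0.98). For Acan they were the fibromodulin gene Fmod (0.91 and 0.88), Anxa8 and Slc29a1. For Comp they were Scarf2 (0.94 and 0.93), Smoc1 and Lbp.

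Cilp varied most like Scrg1 (0.92 and 0.91), the Wnt inhibitor gene Wif1 (0.92 and 0.87) and Ppp1r1b. Sox9 varied most like Arsi (0.85 and 0.84), the matrix Gla protein gene Mgp (0.83 and 0.84) and Scrg1. Ibsp varied most like Col9a1, a collagen gene of cartilage (0.90 and 0.94), then Pcdhga5 (0.85 and 0.81) and Usp13 (0.78 and 0.85), which are not on the cartilage list. Runx2 varied most like Trim6 (0.83 and 0.91), Dock3 and Mybph. Alpl varied most like Myl1 (0.85 and 0.88), a myosin light chain gene of muscle, then Smarca1 and Naa11.

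Between the members themselves, Acan and Comp varied together (r = 0.93 at 4-weeks and 0.68 at 12-weeks), as did Comp and Ptprv (0.90 and 0.78). The pair Acan and Ptprv had r = 0.87 at 4-weeks and 0.26 at 12-weeks. Ibsp and Alpl, both genes of mineralizing cells, had 0.60 and 0.57. Ibsp and Ptprv had -0.13 at 4-weeks and 0.82 at 12-weeks, and Runx2 and Ptprv -0.04 and 0.01.

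**Figure D3:**
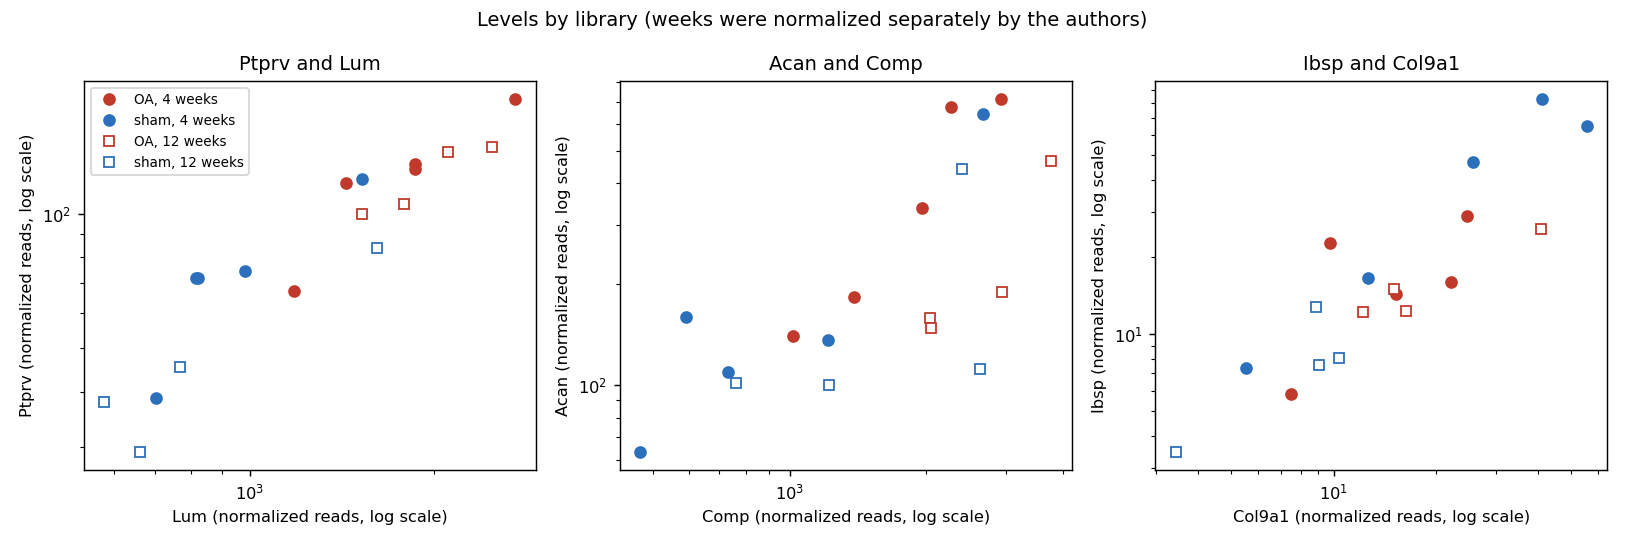
Normalized reads (log axes) of Ptprv against Lum, Acan against Comp and Ibsp against Col9a1, with 1 point per library, OA in red and sham in blue, filled circles for 4-weeks and open squares for 12-weeks. Ptprv and Lum rise together over all libraries, whereas the open squares of Acan spread widely at similar Comp levels.

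The levels of Ptprv were set against fibroblast RNA in ratios chosen after the values had been seen. Per 1000 normalized reads of Lum, Ptprv had 56.9, 65.7, 65.1 and 58.9 in OA and 58.9, 44.3, 52.0 and 65.6 in sham at 12-weeks, and the groups overlapped. Lum was picked as the gene most like Ptprv, which by itself draws the ratios together. Per 100000 normalized reads of the fibroblast markers, Ptprv had 88.9, 73.5, 92.3 and 73.2 in OA and 45.7, 34.6, 62.4 and 38.5 in sham, and the groups did not overlap. Both ratios hold the 12-week values that chose Ptprv, so this separation is a description and not a test. The marker sum is weighted by level, with a mean of 60763 for Col3a1 and 1976 for Lum in OA at 12-weeks. Whether Ptprv differed beyond fibroblast RNA was not tested. At 4-weeks both ratios overlapped, with 57.0 to 81.4 per 1000 of Lum in OA and 55.2 to 88.1 in sham, and 68.1 to 119 per 100000 of the fibroblast markers in OA and 49.5 to 94.4 in sham.

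Levels at 12-weeks were compared with those at 4-weeks on reads scaled over all 18 libraries, as CPM (reads of a gene scaled to library size) with TMM scaling, within sham and within OA. The weeks differ also in the age of the rats at harvest and in the number of rats per pool, which cannot be told apart from time since surgery. In sham, Ibsp had 0.614, 1.40, 5.83, 7.06 and 3.95 CPM at 4-weeks and 0.555, 0.253, 0.949 and 0.593 at 12-weeks. The highest 12-week library was above the lowest 4-week library, sham replicate 1, and below the other 4. The log2 difference was -2.06 (SE 0.55), with an adjusted p of 0.0599 in limma, above the threshold of 0.05, and edgeR gave -2.66 with an adjusted p of 0.0320. Over all alternatives the adjusted p of Ibsp ranged from 0.00952, without sham replicate 1 of 4-weeks, to 0.135.

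In sham, limma called 0 of the 8 tested members and 1.41% of all genes, and edgeR called 1 member, Ibsp, and 1.35% of all genes. Alpl had a log2 difference of -0.72 (SE 0.35, adjusted p = 0.265 in limma), from 4.16 ± 2.03 CPM (n = 5) to 2.38 ± 0.927 (n = 4). Ptprv, whose 12-week sham level took part in its choice, had 6.43 ± 2.45 CPM at 4-weeks and 3.63 ± 1.82 at 12-weeks, given with no test. In OA, 0 members were called in limma or edgeR, where limma called 0.937% and edgeR 1.07% of all genes. Ibsp had 1.47 ± 0.728 CPM at 4-weeks (n = 5) and 1.21 ± 0.489 at 12-weeks (n = 4) in OA, with a log2 difference of -0.17 (SE 0.55, adjusted p = 0.926). The largest OA difference among the members was that of Acan, -0.82 (SE 0.61, adjusted p = 0.592), between -1.19 and -0.55 on leaving out 1 library. Cilp went the other way, with 0.56 (SE 0.29, adjusted p = 0.394), or 0.21 without OA replicate 3 of 12-weeks.

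**Figure D4:**
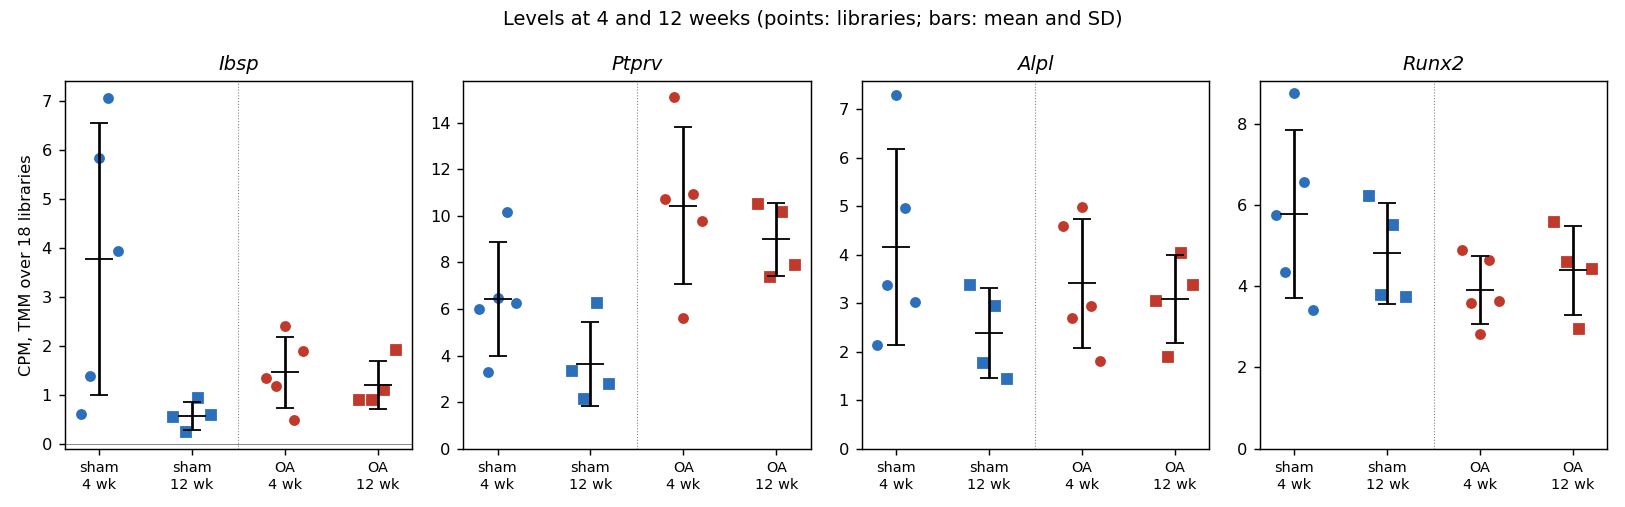
CPM (TMM scaling over 18 libraries) of Ibsp, Ptprv, Alpl and Runx2 by surgery and week, with 1 point per library, sham in blue, OA in red, and bars for the mean and SD. The sham libraries of Ibsp run from 0.614 to 7.06 CPM at 4-weeks and from 0.253 to 0.949 at 12-weeks, while the OA libraries of both weeks overlap.

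Whether the OA difference changed between the weeks was tested as an interaction in the same fit. In limma and edgeR 0 of the 14732 genes were called (0%), and 3.18% had an unadjusted p under 0.05 in limma. Ibsp had the largest interaction of the members, 1.90 on the log2 scale (SE 0.78, unadjusted p = 0.0249, adjusted p = 0.956). It combined a lower level in OA at 4-weeks with a higher one at 12-weeks, neither of which was called. Of the other members, Cilp had 0.68 (SE 0.41), Alpl 0.62 (SE 0.49), Sox9 0.54 (SE 0.67), Runx2 0.37 (SE 0.35), Comp -0.18 (SE 0.63) and Acan -0.54 (SE 0.87), with adjusted p values of 0.956 to 0.982. The interaction of Acan ran from -1.03 without sham replicate 4 of 4-weeks to -0.025 without sham replicate 4 of 12-weeks, and that of Sox9 from 0.15 to 0.83 and of Cilp from 0.33 to 0.89 on leaving out 1 library.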

How the data were processed

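RNA of CD11b/c bead-sorted synovial cells was sequenced in 18 libraries, grouped by surgery and week from the labels. The authors prepared stranded total RNA libraries, checked reads with fastp 0.20.0, aligned them to Rnor_6.0 with STAR 2.7.6a, took out duplicates (Sambamba), assigned reads to genes with featureCounts 2.0.0 and divided the counts by DESeq2 1.24.0 size factors within each week. The authors deposited these normalized reads, treated here as a signal at or above 0, together with their own fold changes, statistics and p-values, which were not used here. Divided by what 1 read is worth in its library, 100% of the values came out whole within 0.01, so reads per gene were recovered. The lowest chi-square per degree of freedom between replicate libraries was 5.39 over 32 pairs, so each library was counted as 1 sample.

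OA was compared with sham within each week in limma 3.58.1 (R 4.3.3) with a mean-variance trend on log2(normalized reads + 1), over genes with a mean of at least 10 and with Benjamini-Hochberg adjustment over all of them. Weeks were compared in 1 limma fit on log2 CPM of the recovered reads (TMM, prior count 2). The edgeR 4.0.16 quasi-likelihood test and DESeq2 1.42.0 were the alternatives on recovered reads. Single members were also tested with an exact two-sided permutation test of the mean log2 level. The samples are separate pools of rats, and p-values measure the spread between pools. The fits were also run on simulated data, with changes placed only in genes of higher counts and the same spread for every gene. That run does not speak for members with low counts or a wide spread. Values per library were computed in Python 3.11.15 (scipy 1.17.1, numpy 2.4.6, pandas 2.3.3).

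The members were named by a rule on gene symbols, and the genes named besides them are list genes with an unadjusted p under 0.05 or a call and the 3 genes most like each member. Members and lists were chosen with earlier results of these data known. Promoter windows came from RefSeq (GRCr8), and transcript lengths were not used here, so levels of different genes are not compared. Symbols held by more than 1 gene (2363 genes at either week) include no member. The alternatives were other pseudocounts, prior counts, filters and scalings, both other tools, a replicate block, no fold-change minimum and leaving out each library. The edgeR and DESeq2 fits with every gene with a read, the list counts without each library, the check for libraries that stand apart in normalized reads and the ratios of Ptprv to fibroblast RNA were added after the data were seen.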

Additional observations from a re-analysis of the deposited data

Results flagged for a closer look

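Among the 40 groups of 4 or 5 libraries formed by the 10 genes, 2 surgeries and 2 weeks, 1 held a library that stood apart by Dixon's 95% criterion on the log2(normalized reads + 1) scale, which chance meets in about 1 group in 20. It was Acan in the sham group at 12-weeks, where sham replicate 4 had 441 normalized reads and the other 3 libraries had 99.7 to 112. The gap to the nearest library was 0.923 of the range of the group on that scale, above the critical value of 0.829, and 0.964 in normalized reads. In normalized reads 5 groups met the criterion, the others being Acan in OA at 12-weeks and Acan, Sox9 and Sp7 in sham at 4-weeks. The same library held 2405 normalized reads of Comp and 1582 of Cilp, both within the range of OA at 12-weeks, and its Ptprv level was 37.9.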

How the results depend on the processing

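Leaving aside the comparisons of Ptprv that were not tested, 652 log2 differences of the members were refitted under an alternative, of which 633 kept their direction and their side of the threshold, 17 changed sign and 2 passed the threshold. The 2 were the sham difference of Ibsp between weeks, -2.66 in edgeR and -2.55 without sham replicate 1 of 4-weeks (range -2.55 to -1.74 on leaving out 1 library). Apart from 1 under the replicate block, sign changes arose with 1 library left out, where the range was -0.57 to 0.044 for Sox9 at 4-weeks, -0.071 to 0.51 for Sox9 and -0.27 to 0.034 for Runx2 at 12-weeks, -0.79 to 0.22 for Acan and -0.24 to 0.043 for Cilp between weeks in sham, -0.28 to 0.26 for Sox9, -0.46 to 0.034 for Ibsp and -0.29 to 0.11 for Alpl between weeks in OA, and -0.56 to 0.074 for the interaction of Comp. Fewer samples enter these fits, and the cause was not tested.

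The number of all genes called at 4-weeks, 0 in limma, was 27 in DESeq2 under either filter, 1 in edgeR with every gene with a read, and 0 to 1 on leaving out a library, the 1 without sham replicate 3. At 12-weeks it was 0 in limma, 95 in DESeq2 under either filter, 25 in edgeR with every gene with a read, and 0 to 81 on leaving out a library, with 81 without sham replicate 3 and 1 without sham replicate 4. In DESeq2, in edgeR with every gene with a read and without sham replicate 3, 1 member was called at 12-weeks, Ptprv, which was chosen on that contrast (0 to 1 on leaving out a library). Between weeks in sham, 207 genes were called in limma, 88 to 259 on leaving out a library, with 88 without sham replicate 4 and 110 without sham replicate 1 of 12-weeks, and 1 member, Ibsp, was called in edgeR (0 to 1 on leaving out a library). Between weeks in OA, 138 genes were called, 53 with every gene with a read and 38 to 137 on leaving out a library, 38 without OA replicate 1 of 12-weeks and 63 to 75 without each of the others except OA replicate 3 of 4-weeks.

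Same-numbered OA and sham libraries come from different rats, and the labels link them only by number. Their deviations from the group means correlated at -0.13 to 0.08 at 4-weeks and -0.03 to 0.30 at 12-weeks. The 0.30 was that of replicate 3, and whether that pair shared a step of processing was not tested. With the replicate number as a block, 1 gene was called at 4-weeks, 245 between weeks in sham and 140 between weeks in OA, and the OA difference of Sox9 between weeks was 0.026 against -0.03 without it. The block changed no call of a member. Sp7 and Bglap were limited by depth, with at most 11 reads in a library.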
